A study of Mus musculus with 8 samples.

Results

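Cardiac sarcomere genes were followed in cultures of mouse embryonic stem cells that carried the HNRNPK 6A mutation or were wild type (WT). The set was listed by gene name, but with earlier results of these data known, so the choice was not blind to them. Its myosin genes were the heavy chains Myh6 and Myh7 and the light chains Myl7, Myl2 and Myl3. The others were cardiac actin Actc1, the troponins Tnnt2, Tnni3 and Tnnc1, and titin Ttn. All 10 were among the 24421 genes of the deposited tables, and all 10 passed the filter on low counts, which left 15458 genes for testing. HNRNPK is an RNA-binding protein, and the series concerns the spreading of Xist RNA along the X chromosome. The sources used here do not say which residues the 6A allele changes, or whether either genotype was a single clone.

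The 4 groups were 6A cells at day 14, WT cells at day 14, 6A cells at day 0 and WT cells at day 0, all of the hybrid line CAST/Ei x 129/Sv/Jae. Day 0 cells were undifferentiated stem cells, grown with leukemia inhibitory factor (LIF) on irradiated mouse embryonic fibroblasts and collected once these feeders had been taken away. Day 14 cells had lost LIF, formed embryoid bodies during 4 days of suspension, and spread on gelatin from day 5 on. The embryoid bodies hold many cell types, so the values are averages over a mixed culture. Each group had 2 libraries that the submitters call biological replicates; separate differentiations are not described, so p-values measure only the spread between these samples. The design sentence of the series gives day 7 where sample titles and protocol give day 14, and day 14 is used.

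The sarcomere is the contractile unit of striated muscle. Thick filaments of myosin heavy and light chains pull on thin filaments of actin, on which the troponin complex senses calcium, and titin spans from the Z-disc to the middle of the sarcomere. Several parts come as atrial and ventricular isoforms: Myl7 is the atrial and Myl2 the ventricular regulatory light chain, and Myl3 is the ventricular essential light chain. In mice, Myh7 marks the ventricles and Myh6 the atria in later embryonic life, and after birth Myh6 is also made in the ventricles. Atrial and ventricular are used here as names of the genes, and the chamber identity of cells in these cultures was not tested.

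The upstream sequences of the members are shown because the genes moved together at day 14. All 10 symbols matched the RefSeq promoter table (GRCm38.p6). The 250 bases were read before the listed start nearest to the start of the gene in the GENCODE M21 annotation. Myh7, Myl2 and Tnnt2 had 2 listed starts each, and only the nearest was counted. Motifs were searched on both strands: the CArG box (the binding sequence of SRF), CATTCC (the core bound by TEAD factors), the MEF2 site, GATAA (a core bound by GATA factors), AAGTG (a core bound by Nkx2-5) and the TATA box letters TATAAA. The 5 sequences below run 5′ to 3′ on the gene's strand, and capitals mark CArG boxes and CATTCC on either strand.
Myl7, chr11:5898783-5899032, minus strand: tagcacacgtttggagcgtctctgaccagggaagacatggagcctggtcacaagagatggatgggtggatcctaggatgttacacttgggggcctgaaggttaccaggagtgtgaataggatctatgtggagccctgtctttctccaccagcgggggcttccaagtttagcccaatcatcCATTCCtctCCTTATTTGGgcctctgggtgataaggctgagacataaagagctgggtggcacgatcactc
Actc1, chr2:114052876-114053125, minus strand: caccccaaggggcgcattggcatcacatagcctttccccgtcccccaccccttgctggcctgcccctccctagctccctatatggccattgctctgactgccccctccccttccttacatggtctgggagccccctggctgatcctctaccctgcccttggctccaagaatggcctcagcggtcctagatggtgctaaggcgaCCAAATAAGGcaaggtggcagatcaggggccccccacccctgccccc
Myl3, chr9:110763428-110763677, plus strand: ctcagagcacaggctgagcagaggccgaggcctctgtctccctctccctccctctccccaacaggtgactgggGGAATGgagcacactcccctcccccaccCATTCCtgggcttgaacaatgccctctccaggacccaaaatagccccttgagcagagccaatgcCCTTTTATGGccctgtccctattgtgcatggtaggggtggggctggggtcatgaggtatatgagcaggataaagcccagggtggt
Myh6, chr14:54966608-54966857, minus strand: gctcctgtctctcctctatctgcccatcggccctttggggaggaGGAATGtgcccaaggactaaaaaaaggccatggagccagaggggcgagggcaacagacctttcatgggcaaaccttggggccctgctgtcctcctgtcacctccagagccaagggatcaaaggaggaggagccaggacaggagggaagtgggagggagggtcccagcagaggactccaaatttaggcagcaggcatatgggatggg
Myh7, chr14:54994627-54994876, minus strand: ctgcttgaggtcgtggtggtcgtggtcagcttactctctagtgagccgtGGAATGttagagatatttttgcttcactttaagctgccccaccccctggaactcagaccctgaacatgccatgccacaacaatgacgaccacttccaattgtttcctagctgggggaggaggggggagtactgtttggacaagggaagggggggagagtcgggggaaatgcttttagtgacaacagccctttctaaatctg

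A CArG box stood in 3 of the 10 windows, those of Actc1 (47 to 38 bases before the start), Myl7 (61 to 52) and Myl3 (85 to 76), and in 1.47% of all 32851 windows of 250 bases. CATTCC stood in 6 of 10, those of Myh6, Myh7, Myl7, Myl3, Tnnc1 and Tnnt2, and in 12.6% of all windows. In Myl7, CATTCC lay just upstream of the CArG box, and these motifs did not overlap each other in any printed window. The MEF2 site was found in 1 window (Ttn; 2.92% of all), GATAA in 3 (22.6% of all), AAGTG in 3 (40.7% of all) and TATAAA in 1 (Myl2; 12.4% of all). A match describes letters and not a bound site. The RefSeq start of Myl3 lies 21817 bases, and that of Myl2 7762 bases, from the start of the gene in the GENCODE M21 annotation, so their windows belong to the transcript RefSeq lists. The starts also differed by 1701 bases in Tnni3, 673 in Actc1, 320 in Myh6 and 20 in Tnnt2.

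Myh6 and Myh7 lie side by side on chromosome 14 (mm10, minus strand, Myh6 at chr14:54941921-54966927 and Myh7 at chr14:54970684-54994626) and are close copies, so their reads were examined before their values. Their coding sequences, read from GENCODE M21 transcripts, were identical at 91.8% of 5800 aligned bases. The longest identical run had 245 bases, at coding positions 4246 to 4490 of Myh6, and is shown because a read inside it carries no letter that tells the genes apart.
Myh6 and Myh7, shared run: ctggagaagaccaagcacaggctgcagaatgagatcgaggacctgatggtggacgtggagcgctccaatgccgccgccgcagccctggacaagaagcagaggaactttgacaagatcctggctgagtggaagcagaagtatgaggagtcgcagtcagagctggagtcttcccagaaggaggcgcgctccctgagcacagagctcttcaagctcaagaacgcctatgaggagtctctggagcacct

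Of all windows of 150 bases, the read length, 5.83% of the Myh6 coding sequence occurred unchanged in Myh7, so most reads of this length hold at least 1 distinguishing base. The counting of reads that fit both genes is not described in the sources used here. No 150-base window was shared between Actc1 and Acta1, Actc1 and Acta2, Myl7 and Myl2, Myl3 and Myl4, Tnni3 and Tnni1, or Tnnt2 and Tnnt1.

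The remaining members lie on other chromosomes or far from these (mm10). Myl7 is at chr11:5896637-5898782 (minus strand), Myl2 at chr5:122100951-122113472 (plus) and Myl3 at chr9:110741861-110769798 (plus). Actc1 is at chr2:114047282-114053548 (minus), and Ttn lies on the same chromosome at chr2:76703980-76982547 (minus). Tnnt2 is at chr1:135836354-135852260 (plus), Tnni3 at chr7:4518305-4524229 (minus) and Tnnc1 at chr14:31208312-31211729 (plus). Some exons overlap other genes: Myh7 shares 484 exonic bases with the antisense RNA Mhrt, which had 0 to 2 counts per library, Tnni3 shares 86 with Dnaaf3 on its own strand (23 to 185 counts), Myl3 shares 95 with Pth1r (10 to 466 counts) and Myl2 shares 60 with Ccdc63 (1 to 18 counts). The kit keeps strand, but the sources used here do not say whether the counting used it, and reads within the overlaps may belong to either gene.

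Libraries held 8146684 to 15540163 counts, of which 29.1% to 31.6% were assigned to an allele, and 3 counts corresponded to 0.193 to 0.368 CPM of the total. CPM values are read counts normalised to library size with TMM factors. Hnrnpk itself was lower in 6A at both times, with 348 and 385 CPM in 6A against 495 and 474 in WT at day 14 (log2 fold change -0.40, edgeR adjusted p = 0.043). The identity of the cultures was checked against markers. At day 0 the 5 pluripotency genes summed to 3490 to 3496 CPM in 6A and 3541 to 3637 in WT, and at day 14 to 428 to 442 CPM in 6A and 307 to 330 in WT. The label of differentiated stem cells names no cell type, and sarcomere genes, neural, blood, endodermal and fibroblast genes were all detected at day 14. Y-linked genes, which mark male feeder cells, summed to 43.4 to 46.9 CPM in 6A and 28.2 to 28.3 in WT at day 0, and to 0 to 0.0966 CPM in 6A and 0 in WT at day 14.

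**Figure D1:**
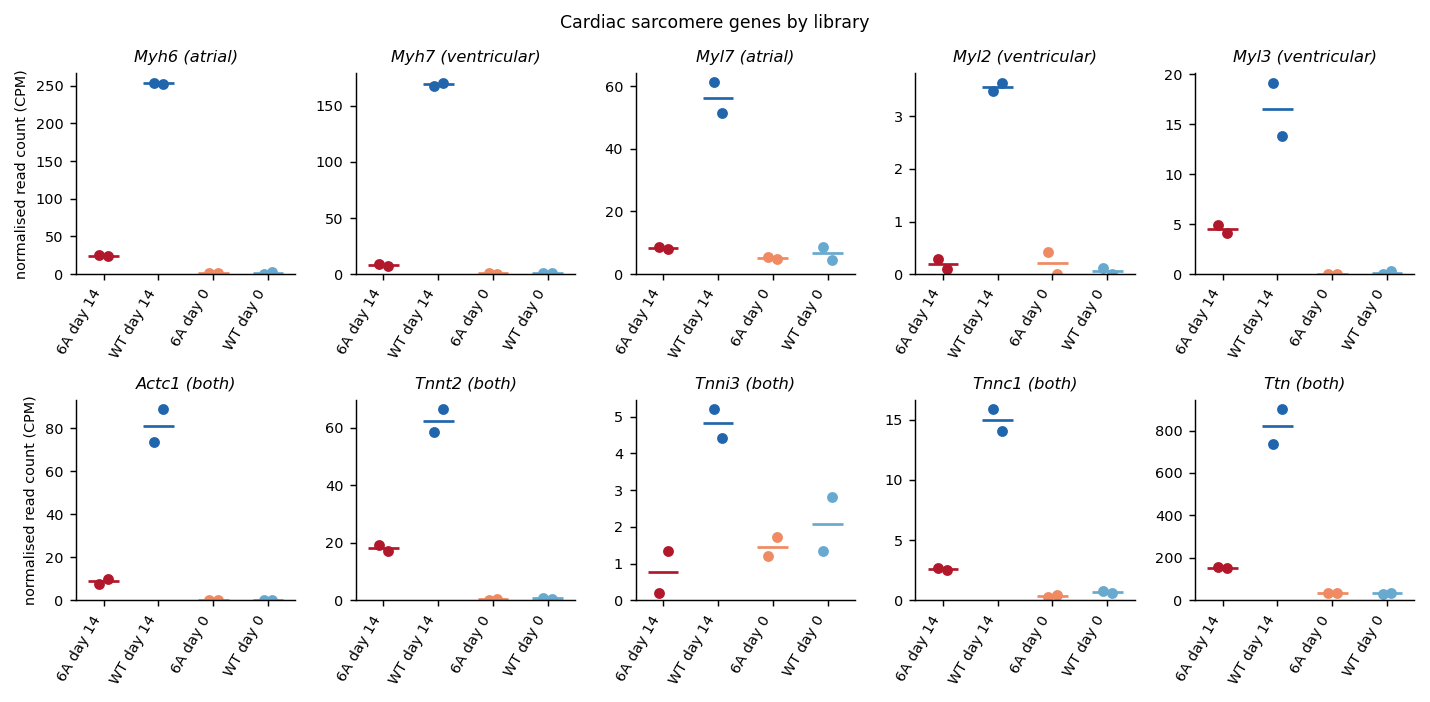
Normalised read counts (CPM, linear axis from 0) of the 10 genes in each of the 8 libraries (points) with the group mean (line), 6A before WT and day 14 before day 0. At day 14 both 6A libraries lie below both WT libraries for each gene; Ttn stands at 155 and 151 CPM in 6A against 736 and 902 CPM in WT.

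At day 14 every sarcomere gene of the set was lower in 6A than in WT cultures. The fall was deepest for the ventricular isoforms Myh7 and Myl2 and shallowest for Tnnt2 and the ventricular Myl3. All 10 members fell past the threshold of an adjusted p under 0.05, where 8.31% of all tested genes fell (5.33% rose and 13.6% changed in either direction). The members' median log2 fold change was -2.68, and that of all tested genes was 0.00397. The 10 were called in each of the 15 alternative settings. Myl2 reached 10 counts in both libraries of 1 group only, WT at day 14, so it passed the filter through that group. In these bulk samples, fewer cells with sarcomeres and less sarcomere RNA per cell cannot be told apart. Summed over the 10 genes, the cultures held 234 and 225 CPM in 6A against 1395 and 1568 CPM in WT. Without Ttn, which gave most of the sum, it was 78.3 and 74.2 CPM in 6A against 659 and 666 CPM in WT.

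Among the thick filament genes, Myh7, the slow and ventricular myosin motor, had 9.08 and 6.95 CPM in the 6A libraries and 168 and 171 CPM in the WT libraries. Myh6, the fast and atrial motor, had 25.1 and 24.1 CPM in 6A and 254 and 253 CPM in WT. In both genes the replicates lay close together and far from the other genotype. Myh7 fell by 4.40 on the log2 scale (SE 0.16, edgeR adjusted p = 5.9e-09), a 21.1-fold lower level. Myh6 fell by 3.36 (SE 0.21, adjusted p = 1.8e-06), a 10.3-fold lower level. Ordered from the deepest fall, Myh7 took place 56 and Myh6 place 111 of the 15458 tested genes.

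The light chains stabilise the lever arm of myosin, and Myl7 and Myl2 are the ones phosphorylated by myosin light chain kinase. Myl7 had 8.79 and 8.01 CPM in 6A against 61.3 and 51.4 CPM in WT. Myl3 had 4.93 and 4.15 CPM in 6A against 19.1 and 13.8 CPM in WT. Myl2 was near the counting floor in 6A, with 3 and 1 counts (0.290 and 0.0965 CPM) against 30 and 46 counts in WT (3.48 and 3.64 CPM). No library of 1 genotype reached into the range of the other for any of the light chains. Myl2 fell by 4.13 on the log2 scale (SE 0.70, edgeR adjusted p = 0.0014), the largest SE of the 10, and ran from -5.05 to -3.57 without single libraries. Myl7 fell by 2.74 (SE 0.22, adjusted p = 3.4e-06) and Myl3 by 1.85 (SE 0.28, adjusted p = 0.00067).

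The thin filament genes fell as well. Actc1, the cardiac actin that forms the filament, had 7.82 and 9.94 CPM in 6A against 73.5 and 88.8 CPM in WT, a 9.14-fold lower level (log2 fold change -3.19 ± 0.19, edgeR adjusted p = 3.2e-07). Tnnt2, the troponin subunit that binds tropomyosin, had 19.4 and 17.1 CPM in 6A against 58.4 and 66.5 CPM in WT, and at 3.43-fold it was the smallest fall of the 10 (-1.78 ± 0.20, adjusted p = 5.1e-05). Tnnc1, the calcium-binding subunit shared with slow skeletal muscle, had 2.7 and 2.51 CPM in 6A against 15.9 and 14.1 CPM in WT. It fell by 2.51 on the log2 scale (SE 0.24, adjusted p = 1.4e-05). Tnni3, the inhibitory subunit of the mature heart, had only 2 and 14 counts in 6A (0.193 and 1.35 CPM) against 45 and 56 in WT (5.22 and 4.43 CPM). The groups did not overlap, but the 6A libraries differed widely from each other, and the log2 fold change of -2.61 ± 0.53 (adjusted p = 0.0048) was -1.81 without 6A replicate 1 and -4.55 without 6A replicate 2.

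Ttn, the giant elastic protein, had 155 and 151 CPM in 6A against 736 and 902 CPM in WT. The difference between genotypes was several times the spread within WT (log2 fold change -2.42 ± 0.13, edgeR adjusted p = 1.9e-07, a 5.35-fold lower level). Ttn ranked at place 253 of the tested genes from the deepest fall.

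**Figure D2:**
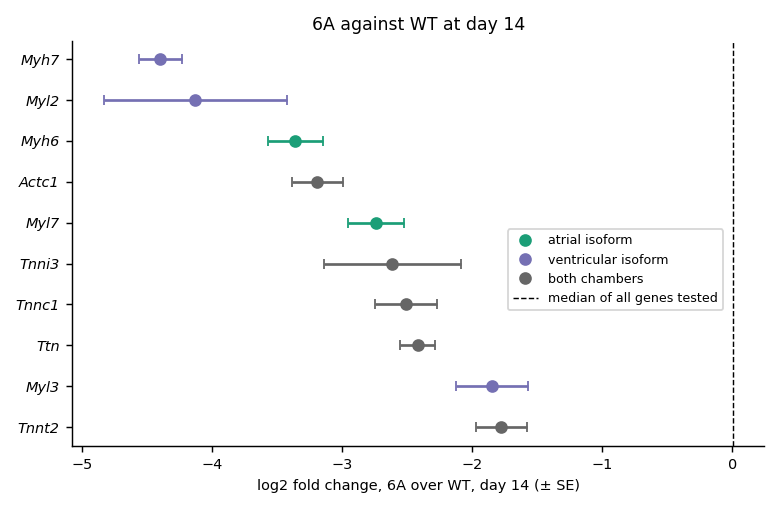
Log2 fold change of 6A over WT at day 14 (points, bars ± SE of the edgeR fit, n = 2 libraries each), ordered from the deepest fall at the top and coloured by isoform class; the dashed line is the median of all tested genes. The 10 values run from -4.40 for Myh7 to -1.78 for Tnnt2.

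The falls differed in size, and the atrial and ventricular isoforms did not separate as 2 classes. The ratio of Myh6 to Myh7 reads was 2.77 and 3.47 in the 6A libraries against 1.51 and 1.48 in the WT libraries. Both 6A ratios were higher, and their 95% counting intervals, 2.18 to 3.54 and 2.66 to 4.58 in 6A, did not reach those of WT, 1.41 to 1.61 and 1.4 to 1.56. The mean log2 ratio was higher in 6A by 1.05, a change of 2.07-fold, with p = 0.333 in the exact two-sided permutation test, the smallest p that 2 libraries against 2 allow. Counting intervals and floors cover counting error only, since reads were not marked by molecular identifiers.

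For the regulatory light chains, the ratio of Myl7 to Myl2 was 30.3 and 83.0 in 6A against 17.6 and 14.1 in WT. It was higher in both 6A libraries, but on 3 and 1 counts of Myl2, so that the interval of the first 6A library, 10.1 to 150, spanned both WT ratios (difference of log2 means 1.67, exact p = 0.333). The ratio to the essential light chain lay in the other direction. Myl7 to Myl3 stood at 1.78 and 1.93 in 6A against 3.21 and 3.71 in WT, lower in 6A by 0.89 on the log2 scale, and Myl3 is the ventricular partner here. Summed over both atrial and all 3 ventricular genes, the ratio was 2.37 and 2.87 in 6A against 1.65 and 1.62 in WT, a sum that the myosin heavy chains dominate. For Myl2 and Myl3, both ventricular in the adult heart, Myl2 to Myl3 was 0.0588 and 0.0233 in 6A against 0.182 and 0.263 in WT. The 6A values again rest on 3 and 1 counts of Myl2. Their intervals, 0.0117 to 0.182 and 0.00058 to 0.137, overlapped that of WT replicate 1, 0.119 to 0.269.

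**Figure D3:**
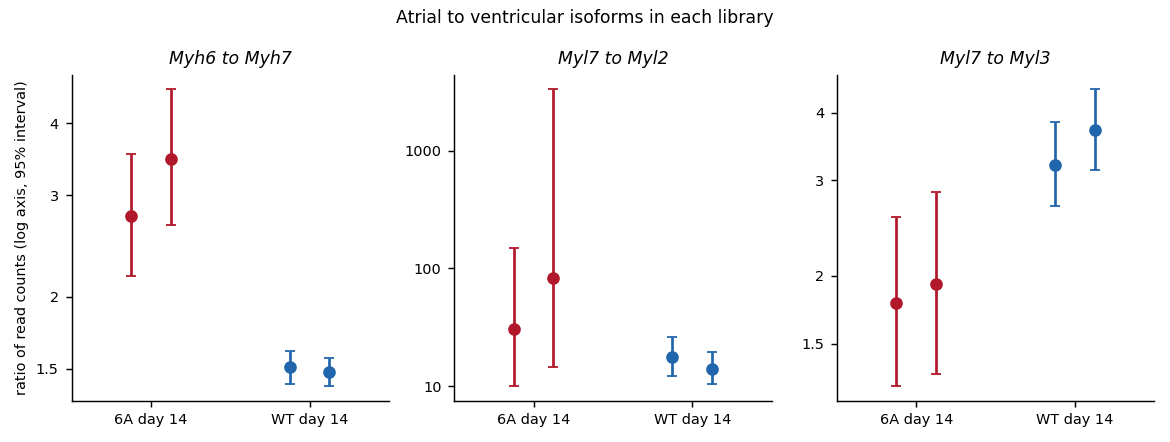
Ratio of read counts of an atrial to a ventricular gene in each day 14 library (points, log axis, bars 95% counting interval), 6A before WT. Myh6 to Myh7 is higher in 6A, Myl7 to Myl3 is lower in 6A, and Myl7 to Myl2 rests on 3 and 1 Myl2 counts in 6A.

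Tnnt2, a troponin made early in heart formation, served as another yardstick. Myh6 to Tnnt2 was 1.29 and 1.41 in 6A against 4.35 and 3.80 in WT. Myh7 to Tnnt2 was 0.468 and 0.407 in 6A against 2.88 and 2.57 in WT. Since Tnnt2 had the smallest fall of the members, any other member set against it had to come out lower in 6A. Between the myosin motors, the ratio to Tnnt2 was lowered more for Myh7 than for Myh6. Tnni3 replaces the slow skeletal isoform Tnni1 as the heart matures; the Tnni3 to Tnni1 ratio was 0.00833 and 0.0622 in 6A against 0.0814 and 0.0852 in WT, with the 6A values on 2 and 14 Tnni3 counts. Ratios of this paragraph are descriptions without a test.

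Levels of different genes were compared per kilobase of annotated exon. In WT at day 14, Myl7 led with 87.1 to 104 CPM per kb, followed by Actc1 (45.4 to 54.9), Myh6 (37.6 to 37.8), Myh7 (19.5 to 19.8) and Tnnc1 (13.5 to 15.3). Myl3 (6.77 to 9.36), Tnnt2 (7.54 to 8.58) and Ttn (6.30 to 7.72) came next with overlapping ranges, and Tnni3 (2.15 to 2.53) and Myl2 (1.78 to 1.87) were lowest. The light chain that marks the ventricle, Myl2, was therefore the lowest of the 10 per length in WT. In 6A, Myl7 again led with 13.6 to 14.9 CPM per kb, before Actc1 (4.83 to 6.15) and Myh6 (3.59 to 3.73). Myh7 stood at 0.807 to 1.05 CPM per kb there and took place 8, against place 4 in WT. Tnnc1 (2.41 to 2.60), Tnnt2 (2.20 to 2.50) and Myl3 (2.03 to 2.41) overlapped their neighbours in 6A. The order depends on the length used: over the coding length, Tnnt2 took place 1 in 6A and place 3 in WT, since most of its annotated exon length is noncoding.

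In undifferentiated cells no sarcomere gene of the set was called, and most had few counts in both genotypes. Of the 10 members, 0 changed at day 0, where 1.58% of all tested genes did. DESeq2 called 0 members too. At an unadjusted p under 0.05 there was 1 member, Myl3, with 0 counts in both 6A libraries against 0 and 4 in the WT libraries, at least 1.60-fold lower in 6A when 3 counts over the group are taken as the floor. The median log2 fold change of the members was -0.57, and that of all tested genes 0.01.

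Ttn (241 to 516 counts) and Myl7 (64 to 70 counts) were the members well above the floor in every day 0 library. Ttn had 33.9 and 33.8 CPM in 6A against 29.7 and 36.4 CPM in WT, and the groups overlapped (log2 fold change 0.02 ± 0.14, adjusted p = 0.96). Myl7 had 5.47 and 4.67 CPM in 6A against 8.51 and 4.66 CPM in WT, again with overlap (-0.32 ± 0.26, adjusted p = 0.57). Myh6 had 1.03 and 1.4 CPM in 6A against 0.740 and 2.82 CPM in WT, Myh7 had 0.770 and 0.467 CPM in 6A against 0.864 and 0.918 CPM in WT, and Tnni3 had 1.20 and 1.74 CPM in 6A against 1.36 and 2.82 CPM in WT. These low genes were highest in WT replicate 2, and Myh6 was called lower in 6A (log2 fold change -1.19, adjusted p = 0.035) when WT replicate 1 was left out. Tnnt2 had 1 and 9 counts in 6A against 8 and 7 in WT, and Tnnc1 3 and 7 against 6 and 9. Actc1 (0 and 1 counts in 6A, 1 and 0 in WT) and Myl2 (5 and 0 counts in 6A, 1 and 0 in WT) were not detected in every library, so no difference could be seen at this depth. Feeder RNA, higher in 6A by the Y-linked sums above, was present in these libraries, and its part in the values was not tested.

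Differentiation raised all 10 genes in WT and 8 of 10 in 6A. Myh7, Myl3, Actc1, Tnnt2 and Tnnc1 reached 10 counts in both libraries of a group only at day 14, and Myl2 only in WT at day 14. These genes thus passed the filter on low counts through groups where they were high. Without the filter, 10 members and 6127 of all 20359 genes then tested were called higher in WT, and 8 members and 5897 genes in 6A. In WT, 38.4% of all tested genes rose, and the members' median log2 fold change was 6.21, against 0.04 for all tested genes. In 6A, 35.4% of all tested genes rose, with a median of 3.24 for the members and -0.03 for all. Both comparisons use the same day 14 and day 0 libraries as the genotype comparisons.

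Actc1 had 1 count in all at day 0 in each genotype. In 6A it had 184 counts at day 14 against 1 at day 0, a ratio of 237 with a 95% counting interval of 42.0 to 9409 after scaling. In WT it had 1757 counts at day 14 against 1 at day 0, a ratio of 1839 (interval 330 to 72676). Myl3 had 94 counts at day 14 against 0 at day 0 in 6A, at least 40.3-fold higher, and 340 against 4 in WT. Myl2 had 4 counts at day 14 against 5 at day 0 in 6A (log2 fold change 0.03 ± 1.17, adjusted p = 0.98) and 76 against 1 in WT, a ratio of 79.5 (interval 13.9 to 3183). The difference between these 2 changes of Myl2 was not called (-5.96 ± 1.79, edgeR adjusted p = 0.078).

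The myosin motors rose in both genotypes. Myh7 rose by a log2 fold change of 3.71 ± 0.27 in 6A and 7.54 ± 0.22 in WT. Myh6 rose by 4.31 ± 0.30 in 6A and 6.97 ± 0.28 in WT. Tnnt2 rose by 5.57 ± 0.35 in 6A and 6.50 ± 0.31 in WT, Tnnc1 by 2.77 ± 0.40 in 6A and 4.44 ± 0.30 in WT, and Ttn by 2.18 ± 0.14 in 6A and 4.62 ± 0.15 in WT. Each of these 10 changes passed the threshold (edgeR adjusted p from 1.1e-11 to 2.6e-05). Myl7 rose little in 6A (0.73 ± 0.25, adjusted p = 0.017, not called without 6A day 14 replicate 1 or without 6A day 0 replicate 2) and by 3.15 ± 0.23 in WT. Tnni3 stood at -0.94 ± 0.61 in 6A (adjusted p = 0.18) and 1.10 ± 0.43 in WT (adjusted p = 0.033). The WT call of Tnni3 was lost with DESeq2 and without WT day 0 replicate 1 or either WT day 14 replicate, and the 6A value was a called fall without 6A day 14 replicate 2 (-2.88, adjusted p = 0.010).

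**Figure D4:**
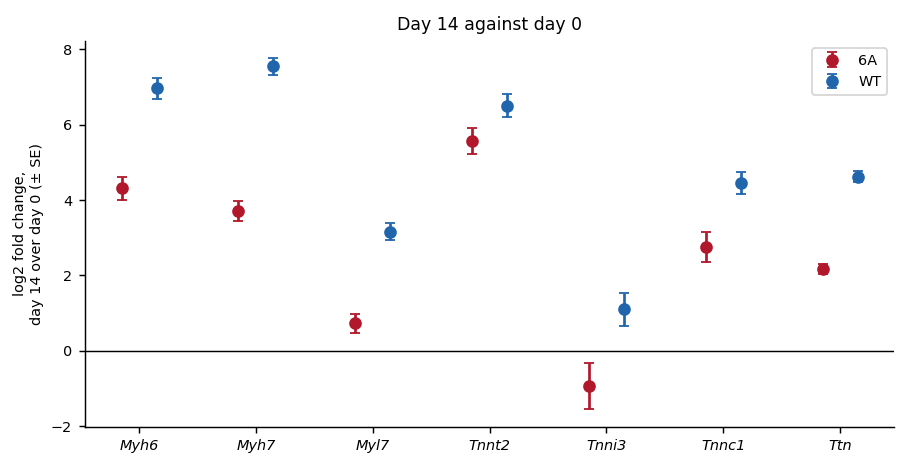
Log2 fold change of day 14 over day 0 (points, bars ± SE of the edgeR fit) in 6A, left, and WT, right, for the 7 genes with more than 3 counts in each group. Tnnt2 has the closest pair (5.57 and 6.50), and Myh7 the widest (3.71 and 7.54); Actc1, Myl2 and Myl3 are omitted because a group had at most 3 counts.

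Whether the 6A difference at day 14 exceeded that at day 0 was tested as the genotype by day interaction. It was called negative for 4 members, where 3.34% of all tested genes were called negative. Ttn had -2.44 ± 0.19 on the log2 scale (edgeR adjusted p = 3.1e-05), Myh7 -3.83 ± 0.49 (adjusted p = 0.00077), Myl7 -2.42 ± 0.34 (adjusted p = 0.0015) and Myh6 -2.66 ± 0.50 (adjusted p = 0.010). The call of Myh6 was lost without WT day 14 replicate 1 (adjusted p = 0.051), WT day 14 replicate 2 (0.057) or 6A day 0 replicate 2 (0.14). The other 6 were not called, with standard errors of 0.61 (Tnnc1) to 2.18 (Actc1), as in Tnnt2 (-0.93 ± 0.70) and Tnni3 (-2.04 ± 0.74). Among these 6, Myl3 alone had a positive value (2.26 ± 1.64).

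The tables also give reads assigned to a parental allele, a readout not used to choose the genes. At day 14 the members' reads came almost only from the 129 allele in both genotypes: 95.7% and 96.9% in the 6A libraries against 95.9% and 95.5% in the WT libraries. The means, 96.3% ± 0.822 in 6A and 95.7% ± 0.254 in WT (SD, n = 2 each), differed by 0.567 percentage points (exact two-sided permutation p = 0.667). Over all genes, libraries had 79.9% to 80.8% of assigned reads on the 129 allele, so the members lay above that level. The surroundings of 8 of the 10 members were alike, with medians of 98.5% to 99.3% over the 20 nearest genes with allele reads. Most of the pooled reads came from such regions, so the pooled share had little room to differ. The test above therefore cannot decide whether the genotypes differ in allele use. Ttn had 99.3% of its day 14 reads on the 129 allele, and its neighbours had a median of 98.7%. The method of assignment, and whether the line is heterozygous at these loci, are not described in the sources used here.

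Myl3 was read from both alleles. Its 129 share at day 14 was 41.3% in 6A (Wilson 95% interval 30 to 53.6) and 49.2% in WT (43.2 to 55.3), and its 20 neighbours had a median of 49.9%. Its fall in 6A thus came with reads of both alleles, 37 CAST and 26 129 reads in 6A against 130 CAST and 126 129 reads in WT. Myh7 had 86.2% in 6A (75.1 to 92.8, 8 CAST and 50 129 reads) and 87.4% in WT (85.6 to 89.0, 184 CAST and 1281 129 reads), below the median of 98.9% of its neighbours, which range from 13.9% to 100%. Myh6 beside it had 97.0% in 6A (93.9 to 98.5) and 94.9% in WT (94.0 to 95.7). In no member did the 129 shares of the genotypes separate beyond their intervals, and Myl2 had 0 assigned reads in 6A.

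Genes that work with the members at the sarcomere were lower too. Of 28 tested genes of other sarcomere and Z-disc proteins, 0 rose and 19 fell in 6A at day 14, with a median log2 fold change of -1.51. Ankrd1, a stretch-responsive partner of titin, had 7.34 and 8.78 CPM in 6A against 65.8 and 76.5 CPM in WT (-3.14 ± 0.17, edgeR adjusted p = 1.9e-07). Mybpc3, the cardiac myosin-binding protein, had 8.11 and 8.40 CPM in 6A against 64.7 and 57.6 CPM in WT (-2.89 ± 0.16). Ldb3, which holds the Z-disc together, had 16.1 and 15.6 CPM in 6A against 90.5 and 79.0 CPM in WT, and Sorbs2, a Z-disc adaptor, had 13.4 and 18.1 CPM in 6A against 69.3 and 77.5 CPM in WT. The 9 that were not called were Tpm1, Cryab, Fhl2, Pdlim5, Obsl1, Myom3, Myh7b, Mylk3 and Trim63, named after their values were seen. The tropomyosin Tpm1 had 1053 and 1046 CPM in 6A against 1113 and 1056 CPM in WT. Cryab had 83.3 and 75.7 CPM in 6A against 86.8 and 65.2 CPM in WT. Log2 fold changes were 0.07 for Fhl2, -0.16 for Pdlim5, -0.28 for Obsl1 and -0.07 for Myom3. They were -0.35 for Myh7b, -0.63 for Mylk3 and -0.52 for Trim63.

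Of 8 tested assembly factors and chaperones, 4 fell and 1 rose (median -0.70). Smyd1, a methyltransferase needed for myofibril assembly, had 6.76 and 6.66 CPM in 6A against 35.1 and 35 CPM in WT (-2.38 ± 0.18, edgeR adjusted p = 2.4e-06). Unc45b, the chaperone of myosin heads, fell by 1.04 (SE 0.26, adjusted p = 0.019), Fhod3, a formin of cardiac thin filaments, by 1.12 (SE 0.14) and Hspb2 by 1.63 (SE 0.29). The 1 that rose, named after its values were seen, was Hsp90aa1, a general chaperone (347 and 256 CPM in 6A, 181 and 189 CPM in WT).

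Of 11 tested skeletal and fetal isoforms, 3 fell and 1 rose (median -0.80). Tnni1, the slow troponin I also used by the embryonic heart, had 23.2 and 21.7 CPM in 6A against 64.1 and 52.0 CPM in WT (-1.37 ± 0.16, edgeR adjusted p = 9.2e-05). Tnnt1, slow troponin T, fell by 1.19 (SE 0.34, adjusted p = 0.035), Neb, nebulin, was not called (-0.80 ± 0.48), and Tpm3 rose (0.38 ± 0.11). Skeletal muscle regulators were scarce: Myf5 had 0 counts in all 8 libraries, Myod1 at most 10 and Myog at most 8 counts. Pax3, of muscle and neural precursors and the only one tested, had 0 and 3 counts in 6A against 60 and 110 in WT.

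Of the chamber genes outside the set that were called, all but Cited1 fell, in the atrial and the ventricular list alike. Of 7 tested atrial genes, 4 fell and 0 rose (median -0.47). Myl4, the atrial essential light chain, had 15.9 and 12.3 CPM in 6A against 64.8 and 56.7 CPM in WT (-2.10 ± 0.18, edgeR adjusted p = 6.7e-06), so the atrial light chains Myl4 and Myl7 both fell. Nr2f1 and Nr2f2, transcription factors linked to atrial identity, fell by 0.77 and 0.47, and Dkk3 by 0.92. Of 8 tested ventricular genes, 5 fell and 1 rose (median -1.06). Pln, the inhibitor of the calcium pump, had 0.483 and 1.83 CPM in 6A against 18.7 and 14.9 CPM in WT (-3.84 ± 0.39), Irx5 fell by 1.95 and Kcnj2, a potassium channel, by 1.06. Cited1 rose, with 13.1 and 13.9 CPM in 6A against 4.87 and 5.30 CPM in WT (1.4 ± 0.23). The atrial hormone gene Nppa and sarcolipin, Sln, were not tested, with 0 to 4 and 0 counts per library.

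Of 14 tested cardiac transcription factors, 4 fell and 0 rose (median -0.48). Nkx2-5, a core cardiac regulator, had 2.22 and 2.22 CPM in 6A against 8.0 and 6.88 CPM in WT (-1.73 ± 0.28, edgeR adjusted p = 0.00087). Myocd, the coactivator of SRF, had 5.70 and 10.4 CPM in 6A against 28.6 and 28.9 CPM in WT (-1.84 ± 0.25). Isl1, of the second heart field, fell by 1.16 (SE 0.23) and Tbx5 by 0.86 (SE 0.20). Named after their values were seen, Gata4 (140 and 132 CPM in 6A, 159 and 133 CPM in WT), Gata6 (302 and 263 CPM in 6A, 283 and 230 CPM in WT), Tbx20 (133 and 153 CPM in 6A, 136 and 148 CPM in WT) and Mef2c (70.1 and 79.3 CPM in 6A, 68.5 and 76.7 CPM in WT) were not called and overlapped between genotypes. Why some factors of this list fell and others were not called was not tested.

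Of 9 tested genes of calcium handling, 5 fell and 0 rose (median -1.23). Hrc, a calcium-binding protein of the sarcoplasmic reticulum, had 1.35 and 1.25 CPM in 6A against 12.4 and 13.5 CPM in WT (-3.31 ± 0.27, edgeR adjusted p = 3.7e-06). The release channel Ryr2 fell by 1.23, the sodium-calcium exchanger Slc8a1 by 1.72 and the junction protein Jph2 by 1.26. The pump Atp2a2, named after its values were seen, was not called (226 and 169 CPM in 6A, 182 and 216 CPM in WT).

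**Figure D5:**
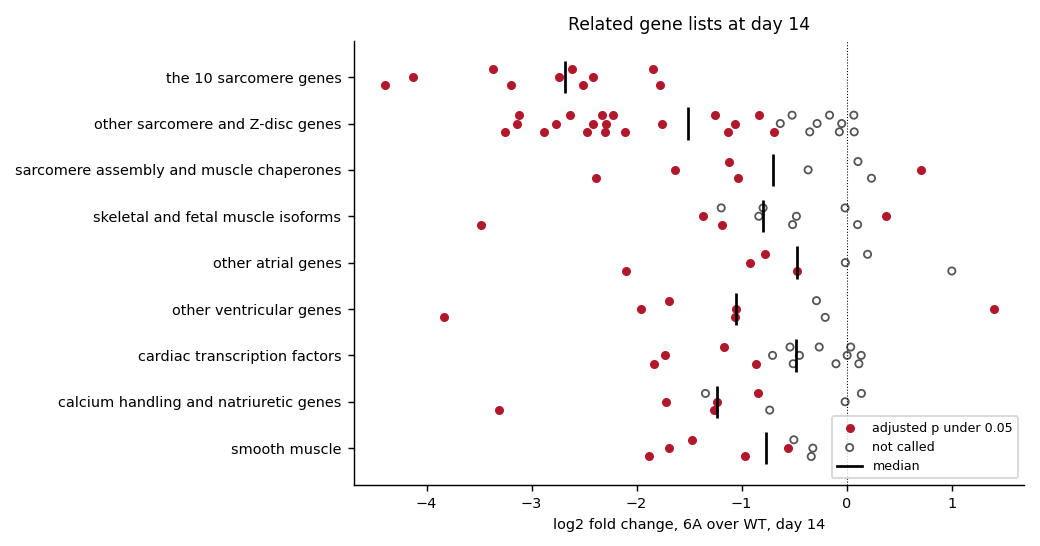
Log2 fold change of 6A over WT at day 14 for each tested gene (points) of the 10 sarcomere genes and 8 related lists, filled where the edgeR adjusted p is under 0.05, with the list median (bar). The medians run from -2.68 for the sarcomere genes to -0.47 for the other atrial genes.

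Markers of other cell types also differed between the genotypes, in both directions, and their part in the fall of the sarcomere genes was not tested. Smooth muscle markers fell (5 of 8, median -0.76, summed 1552 to 1657 CPM in 6A against 2205 to 2626 in WT), as did neural markers (6 of 8, median -2.54, 100.2 to 121 CPM in 6A against 248 to 256 in WT). Blood markers rose (7 of 7, median 2.92, 154 to 159.7 CPM in 6A against 39.0 to 39.5 in WT). Endothelial markers had 3 of 5 higher (median 0.49), endoderm 2 of 7 (0.39), epicardial 2 of 4 (0.57) and pluripotency 3 of 5 (0.51), with none lower, and fibroblast 2 of 8 higher and 1 lower (0.29).

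The genes whose pattern over the 8 libraries was most like the mean of the members were ranked by the Euclidean distance of centred log2 CPM among 13737 genes. Among the nearest 10 were Synpo2, Smyd1, Lmod2, Myl4, Hrc, Tecrl, Csrp3 and Eln, at distances of 0.725 (Synpo2) to 1.13 (Eln). Synpo2, an actin-binding protein of the Z-disc, had 12.7 and 12.7 CPM in 6A against 54.7 and 58.2 CPM in WT at day 14. Lmod2, which lengthens cardiac thin filaments, had 1.83 and 1.06 CPM in 6A against 7.30 and 6.96 CPM in WT, and Csrp3, a Z-disc protein, had 0.773 and 1.45 CPM in 6A against 10.1 and 11.1 CPM in WT. Tecrl had 0.386 and 0.772 CPM in 6A against 4.17 and 5.61 CPM in WT. Of the members, Ttn (1.03) and Tnnc1 (1.21) lay nearest to that mean and Tnni3 (5.77) farthest. Since the mean is made of the members themselves, this ranking is a description and has no test.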

How the data were processed

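Total RNA without ribosomal RNA was sequenced as 150-base read pairs from directional libraries, per the labels' protocols. The submitters' processing notes name cutadapt 1.4.2, STAR 2.7.10a and mm10 but no counting tool, strand setting or method of allele assignment. The authors deposited raw counts per gene, for all reads and for reads assigned to CAST or 129.

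Counts of all reads were tested with edgeR 4.0.16 (R 4.3.3): filterByExpr on the group, TMM scaling, and a robust quasi-likelihood fit of 8 libraries with 1 coefficient per group and 4 residual degrees of freedom. Log2 fold changes have the standard error of that fit, and p-values were Benjamini-Hochberg adjusted over all 15458 tested genes. The fit was tested on simulated data. The floor was 3 counts, share intervals are Wilson intervals and ratio intervals exact binomial ones, at 95%. DESeq2 1.42.0, other scalings, no filter, a replicate block and fits without single libraries were the alternatives. Coordinates are those of GENCODE M21 (mm10), and promoter sequences are from RefSeq.

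The members and the other lists, 18 in all, were chosen with earlier results of these data known. Named outside the members are up to 4 genes of each list with the smallest adjusted p at day 14 and a mean of at least 1 CPM, and genes among the 10 nearest by profile, of which some are not reported here. Genes named outside this rule are marked as such or stand at the counting floor. In list counts, called means an adjusted p under 0.05 over all tested genes.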

Additional observations from a re-analysis of the deposited data

Results flagged for a closer look

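The difference between 6A and WT at day 14 departed from that at day 0 in 4 of the 10 sarcomere genes, by the edgeR test of the genotype by day interaction. The difference at day 14 minus that at day 0, on the log2 scale, was -3.83 for Myh7, -2.66 for Myh6, -2.44 for Ttn and -2.42 for Myl7. Myh7, Ttn and Myl7 were called in each alternative run for the interaction, and Myh6 was not. In Ttn and Myl7 the day 0 counts were well above the floor in each library, so their day 0 values (0.02 and -0.32) are the best measured of the 4.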

How the results depend on the processing

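All 10 day 14 falls kept their direction and their call in the 15 alternatives. The number of all tested genes called at day 14 was 2109 and ran from 982 to 2759 without single libraries: 1073 and 1143 without 6A day 14 replicate 1 or 2, and 1016 and 982 without WT day 14 replicate 1 or 2. Without 1 library, the lone sample left in a group is assumed to vary like the other groups. At day 0 it was 244, and 459 without the filter, 154 without robust dispersion, 23 with only the groups of the comparison and 32 (without 6A day 0 replicate 2) to 567 (without WT day 0 replicate 1) without single libraries, while 0 to 1 members were called. The interaction had 733 calls and 280 to 835 without single libraries, the lowest without WT day 14 replicate 2. Myl2 was called there without the filter (-5.90) and without 6A day 0 replicate 2 (-7.08), and Tnni3 without 6A day 14 replicate 2 (-3.97). The members called ran from 9 to 10 in WT differentiation, 7 to 9 in 6A differentiation and 3 to 5 in the interaction. With upper quartile scaling the median of all genes for day 14 against day 0 in WT was 0.17, against 0.04 with TMM.

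The labels do not say what a shared replicate number means. Deviations of same-numbered libraries correlated at 0.31 between 6A and WT at day 14, 0.15 between them at day 0, 0.48 between day 14 and day 0 in 6A, 0.02 between those days in WT, 0.14 between 6A at day 14 and WT at day 0, and 0.19 between 6A at day 0 and WT at day 14. Since 1 of these was under 0.1, the samples were not treated as pairs. With the replicate block, 2534 genes were called at day 14 and 466 at day 0, and no call of a member changed.

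The log2 difference in the Myh6 to Myh7 ratio, 1.05, was 0.55 with reads assigned to CAST only and 1.22 with reads assigned to 129 only. In the 6A day 14 libraries the CAST value rests on 4 and 3 reads of Myh6 and 6 and 2 reads of Myh7, too few to set it against the others. Directions that the fit of all 8 libraries did not call reversed without single libraries. At day 0 the log2 fold change of Myh6 ran from -1.19 without WT replicate 1 to 0.73 without WT replicate 2, Myl7 from -0.76 to 0.11, Myl2 from -2.35 to 4.24, Myl3 from -4.80 to 0.00, Actc1 from -2.30 to 2.19 (0.47 without 6A replicate 1), Tnni3 from -0.92 to 0.13 and Ttn from -0.11 to 0.18. For 6A differentiation Myl2 ran from -1.11 to 4.21, with -0.90 without day 14 replicate 1. In the interaction Myl3 ran from -1.84 to 2.96 and Tnnt2 from -1.60 to 1.06. The causes were not tested. Depth limits most members at day 0 and Myl2 and Tnni3 at day 14, where a few counts set the value. Over the coding length, Myh6, Myh7, Myl3 and Tnnt2 took places 4, 6, 7 and 3 in WT at day 14.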
